A study of Mus musculus with 8 samples.

Results

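The genes described here are the amino acid transporter families of the mouse heart, taken as every gene whose symbol begins Slc1a, Slc3a, Slc7a, Slc36a, Slc38a or Slc43a followed by a number. Of 55471 gene rows in the count tables, 45 met this rule. They were 42 transporter genes and 3 loci named for lying on the opposite strand of one (Slc7a6os, Slc36a1os and Slc36a3os). The rule uses no measured value.

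RNA had been sequenced from pieces of heart of 4 wild-type (WT) mice and 4 TAZG197V mice, all male, untreated and 14 weeks old. TAZG197V males are hemizygous for a missense mutation, modelled on a patient, in the X-linked gene Taz. It encodes Tafazzin, the mitochondrial enzyme that remodels cardiolipin. The allele was made with CRISPR/Cas9 in C57BL/6N zygotes, founders were crossed to C57BL/6J, and mutants were bred from heterozygous females and WT males. The mutation is present in every cell, so effects that arise in the heart and effects that reach it from other organs cannot be told apart. Each library is named by its genotype and number.

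Amino acids cross membranes through solute carriers that differ in the substrates they accept and in what drives them. Heavy chains of the Slc3 family anchor light chains of the Slc7 family in the plasma membrane as exchangers, while other Slc7 members carry cationic amino acids alone. Slc1 and Slc38 members use the sodium gradient, Slc36 members are mostly proton-coupled, and Slc43 members are facilitative carriers. Several of these genes are known targets of ATF4, the transcription factor of the integrated stress response, which is made when amino acids run short or mitochondria are impaired.

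Total counts per library ranged from 23055689 to 36301031. Levels are given as CPM, counts scaled to the library's TMM-adjusted total, and levels of different genes are compared only as CPM per kilobase of exon (CPM per kb). Taz itself measured 58.7 to 63.8 CPM in the WT libraries and 44.3 to 50.4 CPM in the TAZG197V libraries, though a point mutation cannot be checked by gene counts. Calls required 3 things of a gene: an adjusted p below 0.05 in edgeR's quasi-likelihood test, a fitted log2 fold change larger than 0.20 in size, and a mean count of 50 or more. All 7 cardiomyocyte markers were abundant in every library, yet 4 of them (Tnnt2, Tnni3, Ryr2 and Pln) were called lower in TAZG197V, and their sum was 58310 ± 3193 CPM in WT against 48800 ± 1816 CPM in TAZG197V, with no overlap. Of the tested markers, 3 of 6 for fibroblasts, 2 of 6 for endothelium, 4 of 9 for brain, 4 of 6 for red cells and 1 of 2 for adipocytes were also called lower, against 15.0% of all tested genes, and the part of these shifts in the transporter results was not tested. WT 4 and TAZG197V 4 stood apart from the other 6 libraries: the 12 brain markers summed to 302 CPM in the former and 378 CPM in the latter against 58.7 to 113.9 CPM elsewhere. WT 4 also held 55100 CPM of 7 red cell markers against 227 to 1066 CPM in the others. In bulk tissue, a change in the share of a cell type and a change in RNA per cell cannot be told apart.

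Of the 45 members, 31 had enough counts to be tested, among them 30 transporters, and 14 did not. Slc7a3 and Slc7a11 passed this filter through the TAZG197V libraries alone. By this rule 13 members were higher in TAZG197V hearts, 3 were lower and 15 were not called. The called share was 51.6% of the tested members, and 33.4% of all 15084 tested genes were called (18.5% higher and 15.0% lower). The median log2 fold change was 0.16 over the tested members and -0.01 over all tested genes. The libraries of the 2 genotypes did not overlap for 13 of the 31 members, with TAZG197V above WT for 10 and below for 3, and for 33.2% of all tested genes. Of the 16 called members, 11 were called in the same direction in all 17 alternative fits: Slc7a3, Slc7a11, Slc7a5, Slc1a4, Slc38a1, Slc3a2, Slc38a7, Slc38a2, Slc7a6, Slc1a5 and Slc36a2.

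**Figure D1:**
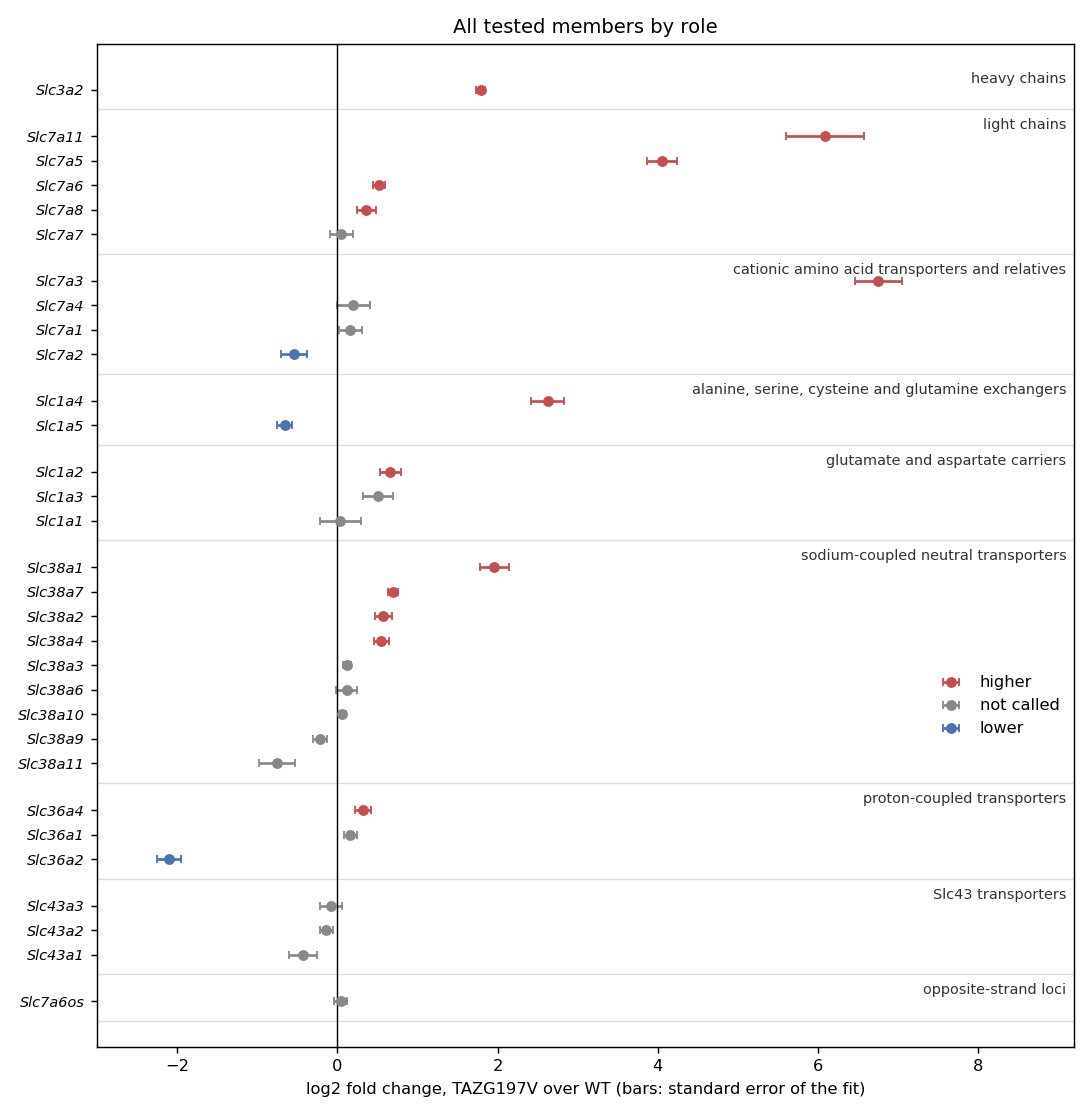
Log2 fold change of TAZG197V over WT (x axis) for the 31 tested members, grouped by role, with bars for the standard error of the edgeR fit and colour for the call. Slc7a3, Slc7a11 and Slc7a5 lie farthest to the right at 6.75, 6.08 and 4.05, and Slc36a2 farthest to the left at -2.11.

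The heavy chain Slc3a2, known as CD98, rose with very little spread between mice. Slc3a2 (chr19:8706882-8723369, mm10) measured 32.9, 37.5, 31.4 and 32.2 CPM in WT 1 to 4 and 117, 106.7, 114.7 and 113.9 CPM in TAZG197V 1 to 4. All TAZG197V libraries lay far above all WT libraries. The log2 fold change was 1.79 (SE 0.058, adjusted p = 5.4e-07 by edgeR), and leaving out any library kept it between 1.73 and 1.83. The other heavy chain, Slc3a1, which pairs with Slc7a9 in kidney and gut, had 0 to 6 counts per library and was not tested.

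Of the 10 light chain genes 5 were tested, and 4 of these were higher in TAZG197V hearts, as were 18.5% of all tested genes. The call of Slc7a8, 1 of the 4, was kept in 8 of 17 alternative fits. Slc7a11, another of the 4, entered the test through the TAZG197V libraries alone, so its place in this count is no independent support. Slc7a5, the exchanger that takes up leucine and other large neutral amino acids, was called with the third largest rise among members. Slc7a5 (chr8:121881150-121907694, mm10) stood at 4.6, 4.73, 5.48 and 11.3 CPM in WT 1 to 4 and at 117, 105, 109 and 110.5 CPM in TAZG197V 1 to 4. WT 4 stood clearly above the other WT libraries, and every TAZG197V library was far above WT 4. The log2 fold change of Slc7a5 was 4.05 (SE 0.18, adjusted p = 3.5e-06), a 16.6-fold difference, and ranked 44 of 15084 tested genes from the highest. It was 4.49 without WT 4.

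Slc7a11, the cystine and glutamate exchanger that supplies cysteine for glutathione, was almost silent in WT hearts. Its counts were 1, 8, 1 and 12 in WT 1 to 4 and 417, 391, 615 and 348 in TAZG197V 1 to 4. As levels, these were 0.034, 0.22, 0.039 and 0.54 CPM in WT and 15.2, 10.6, 19.9 and 12.8 CPM in TAZG197V. The genotypes were separated by a wide gap, and WT 4 was again the highest WT library. The log2 fold change of Slc7a11 (chr3:49892526-50443614, mm10) was 6.08 (SE 0.48, adjusted p = 6.4e-05), a p that describes the gap and is no independent support, since the gene entered the test through the TAZG197V libraries alone. The WT level rested on few counts, and the change was 7.03 without WT 4, 7.03 without TAZG197V 4 and 5.71 without WT 3.

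The other called light chains changed far less. Slc7a6, which exchanges cationic for neutral amino acids, rose from 13.6 ± 0.81 CPM to 19.5 ± 1.33 CPM (SD, n = 4 each), with no overlap, a log2 fold change of 0.52 (SE 0.078) and an adjusted p of 0.0014 by edgeR. Slc7a8, a second large neutral amino acid exchanger, measured 3.85 to 6.88 CPM in WT and 5.49 to 8.95 CPM in TAZG197V, where the highest value was library 4. Its call (log2 fold change 0.36, adjusted p = 0.038 by edgeR) was absent with DESeq2 (adjusted p = 0.11). Slc7a7, the relative of Slc7a6 that is common in macrophages and epithelia, was not called, at 2.19 to 7.39 CPM in WT and 2.64 to 3.29 CPM in TAZG197V. Its highest value was in WT 2, the library with the highest summed adipocyte markers (43.1 CPM against 0.387 to 6.43 CPM elsewhere) and fibroblast markers (1848 CPM against 789.9 to 1215 CPM), whose part in this was not tested. Summed macrophage markers were 301 ± 50.4 CPM in WT against 288 ± 54.1 CPM in TAZG197V. Of the 6 macrophage markers edgeR and DESeq2 each called 0, and 0 had an unadjusted p under 0.05.

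The remaining 5 light chains were barely seen or unseen, and their counts set only upper limits. Slc7a12 had 0 counts in all libraries, where a floor of 3 counts corresponds to 0.081 to 0.134 CPM, for counting error only. Slc7a9 had 1 count in all, Slc7a15 at most 4 and Slc7a13 at most 3 in a library. Slc7a10, an exchanger of small neutral amino acids, had 0 to 10 counts per library.

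The make-up of the light chains that pair with Slc3a2 differed between genotypes. Shares depend on the sum, so the share of a partner can differ where its own level does not: the levels of Slc7a7, Slc7a8 and Slc7a10 overlapped between genotypes. Summed over Slc7a5, Slc7a6, Slc7a7, Slc7a8, Slc7a10 and Slc7a11, the partners reached 6.97 ± 1.00 CPM per kb in WT and 37.4 ± 1.51 CPM per kb in TAZG197V. Slc7a5 made up 20.8%, 16.8%, 23.5% and 38% of this sum in WT 1 to 4 and 79.3% to 80.6% in the TAZG197V libraries, where its share varied by an SD of only 0.553 percentage points. Slc7a6, the leading partner in the first 3 WT libraries, made up 43.5% ± 7.59 of the sum in WT and 11.4% ± 0.888 in TAZG197V, where its own level was higher. Slc7a11 took 0.193% ± 0.206 of the partner sum in WT and 2.80% ± 0.749 in TAZG197V. Per kb, WT hearts held 1.38 ± 0.179 Slc3a2 for each partner and TAZG197V hearts 0.859 ± 0.0146. The ratio of Slc7a5 to Slc3a2, both per kb, was 0.188 ± 0.0995 in WT and 0.929 ± 0.0187 in TAZG197V. These are RNA ratios and do not measure assembled pairs.

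**Figure D2:**
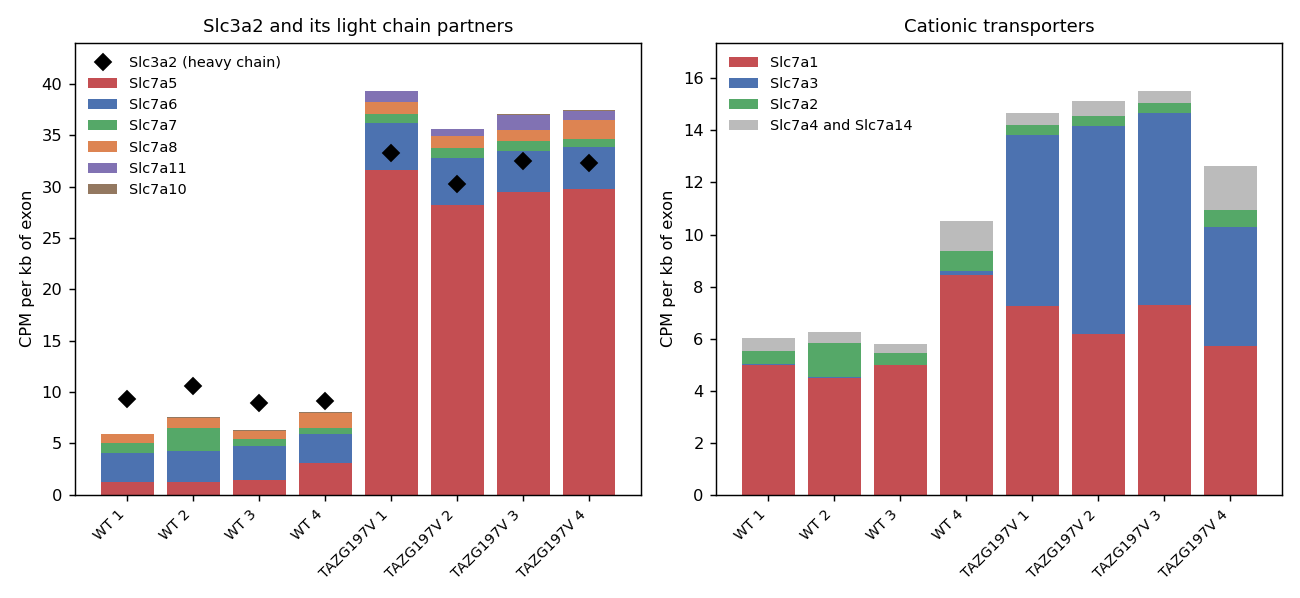
Levels in CPM per kb of exon (y axis, from 0) in each library (x axis), stacked by gene for the Slc3a2 partners (left, with Slc3a2 as diamonds) and the cationic transporters (right). Slc7a5 fills 79.3% to 80.6% of the partner bar in the TAZG197V libraries, and Slc7a3 is visible in those libraries at 36.2% to 52.8% of the cationic bar.

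Among the 5 cationic transporters and their relatives, 4 were tested, with 1 higher, 1 lower and 2 not called. Over all tested genes, 18.5% were called higher and 15.0% lower. Slc7a3, a carrier of arginine, lysine and ornithine best known from brain, had the largest rise of the called members. Slc7a3 (chrX:101079210-101086020, mm10) had 3, 7, 2 and 11 counts in WT 1 to 4 against 687, 1120, 864 and 473 in TAZG197V 1 to 4. These were 0.102, 0.192, 0.0777 and 0.491 CPM in WT and 25.0, 30.2, 27.9 and 17.4 CPM in TAZG197V. No WT library came near any TAZG197V library, and TAZG197V 4 was the lowest of its group while WT 4 was the highest of its own. On the log2 scale the change was 6.75 (SE 0.29, adjusted p = 2.9e-06). Since the gene entered the test through the TAZG197V libraries alone, this p describes the gap and is no independent support. The change was 7.56 without WT 4 and likewise 7.56 without TAZG197V 4, and 6.48 to 6.85 when any other library was left out, with the lowest value without WT 1. With both number 4 libraries left out, the log2 difference of Slc7a3 was 7.74. The part of brain RNA in the Slc7a3 counts was not tested.

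Slc7a1, the widely expressed arginine and lysine carrier, measured 57.4, 51.8, 57.5 and 97.5 CPM in WT 1 to 4 and 83.5, 71.4, 84.0 and 65.9 CPM in TAZG197V 1 to 4. The genotypes overlapped only through WT 4, which lay above all TAZG197V libraries. With all libraries the log2 fold change was 0.16 (SE 0.15, adjusted p = 0.42), and Slc7a1 was not called. It was called without WT 4 (log2 0.47, adjusted p = 0.0026), without TAZG197V 4 (log2 0.49, adjusted p = 0.0021) and without both (log2 0.52, adjusted p = 0.0014). Red cell and brain markers were both high in WT 4, and their part in its Slc7a1 level was not tested. Per kb, Slc7a1 was 80.3% ± 6.17 of the cationic sum in WT and 45.6% ± 3.59 in TAZG197V, where Slc7a3 made up 45.4% ± 6.89.

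Slc7a2, a cationic carrier induced in activated macrophages and abundant in liver, was called lower at 6.87 ± 3.40 CPM in WT and 4.09 ± 1.152 CPM in TAZG197V. The ranges overlapped, WT 2 was highest at 11.6 CPM, and the call (log2 fold change -0.55, adjusted p = 0.031) was kept in 8 of 17 alternative fits. Without WT 2 the log2 fold change was -0.36 (adjusted p = 0.064), without WT 4 it was -0.84 (adjusted p = 0.066), and without TAZG197V 4 it was -0.98 (adjusted p = 0.064). Slc7a4 was not called, at 1.32 to 3.53 CPM in WT and 1.82 to 3.96 CPM in TAZG197V, and 13.3% of its exon bases lie under the opposite-strand gene P2rx6. Slc7a14 had 0 to 12 counts in 6 libraries, 73 in WT 4 and 204 in TAZG197V 4, and was not tested.

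The exchangers of alanine, serine and cysteine moved in opposite directions. Slc1a4, which also carries threonine and supplies serine, stood at 2.30, 4.42, 3.22 and 4.87 CPM in WT 1 to 4 and at 19.2, 18.4, 25.2 and 26.4 CPM in TAZG197V 1 to 4. The lowest TAZG197V library was well above the highest WT library. The log2 fold change of Slc1a4 (chr11:20302180-20332713, mm10) was 2.62 (SE 0.21, adjusted p = 6.2e-05), with 2.50 to 2.73 when any library was left out. Slc1a5, the exchanger best known for glutamine uptake, measured 26.5, 30.8, 23.2 and 26.8 CPM in WT 1 to 4 and 13.9, 17.3, 17.4 and 17.5 CPM in TAZG197V 1 to 4. Every TAZG197V library was below every WT library, with a log2 fold change of -0.66 (SE 0.096, adjusted p = 0.0012). Per kb, Slc1a4 made up 12.7% ± 3.19 of the pair in WT and 58.7% ± 3.86 in TAZG197V, while the sum of both overlapped between genotypes at 7.37 ± 0.925 and 9.64 ± 1.33 CPM per kb.

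Promoter sequence was searched for the core of the composite element that ATF4 and C/EBP proteins are known to bind, TGATGNAA, on both strands from 250 bases before to 50 bases after each start in RefSeq (GRCm38.p6). Of 32851 promoter windows 3.97% held it, which was 4.51% of 27025 symbols. Promoters were matched for 34 of the 45 members, and 3 of these held the element: Slc7a11, Slc1a4 and Slc7a7. Among the 16 called members 10 were matched, and 2 of the 10 held it. Slc7a11 (chr3:50443614-50443863, minus strand, ending at the base before the start) and Slc1a4 (chr11:20332710-20332963, minus strand, ending at position 4 after the start) are shown because both were called higher, with the element in capitals on either strand.
Slc7a11: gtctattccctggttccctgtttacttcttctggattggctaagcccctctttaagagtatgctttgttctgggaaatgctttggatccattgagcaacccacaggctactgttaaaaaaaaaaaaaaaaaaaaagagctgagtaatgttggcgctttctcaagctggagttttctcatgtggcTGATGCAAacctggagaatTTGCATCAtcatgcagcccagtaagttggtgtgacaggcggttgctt
Slc1a4: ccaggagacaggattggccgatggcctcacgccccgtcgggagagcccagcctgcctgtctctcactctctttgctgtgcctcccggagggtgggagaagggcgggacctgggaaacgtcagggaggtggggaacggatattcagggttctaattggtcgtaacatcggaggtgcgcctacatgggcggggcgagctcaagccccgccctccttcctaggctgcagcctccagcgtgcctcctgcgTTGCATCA
In Slc7a11 the element TGATGCAA lay at positions -66 to -59 on the gene's strand and again, on the opposite strand, at -47 to -40. In Slc1a4 it lay once, on the opposite strand, at positions -4 to 4 across the start. Slc7a7, which was not called, held it in 2 of its promoter windows. The core of the antioxidant response element, TGACNNNGC, shares only its first letters TGA with the other motif and was in 12.4% of windows and 14.0% of symbols. It was in the promoters of 6 of the 34 matched members, among them 2 of the 10 called ones: Slc36a1, Slc36a1os, Slc38a2, Slc43a1, Slc7a1 and Slc7a6. Not matched were Slc1a5, Slc36a2, Slc38a1, Slc38a3, Slc43a3, Slc7a12, Slc7a13, Slc7a2, Slc7a3, Slc7a4 and Slc7a5. A match of letters is a description and does not show a bound site.

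A list of 8 members drew on common knowledge of ATF4 targets: Slc3a2, Slc7a5, Slc7a11, Slc7a3, Slc1a4, Slc38a2, Slc7a1 and Slc1a5. Of these 8, 6 were called higher in TAZG197V hearts, where 18.5% of all tested genes were, Slc1a5 was called lower and Slc7a1 was not called. The list was chosen with earlier results of these data known and holds Slc7a3 and Slc7a11, so it is a description and not independent evidence. Their median log2 fold change was 2.2 against -0.01 over all tested genes.

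**Figure D3:**
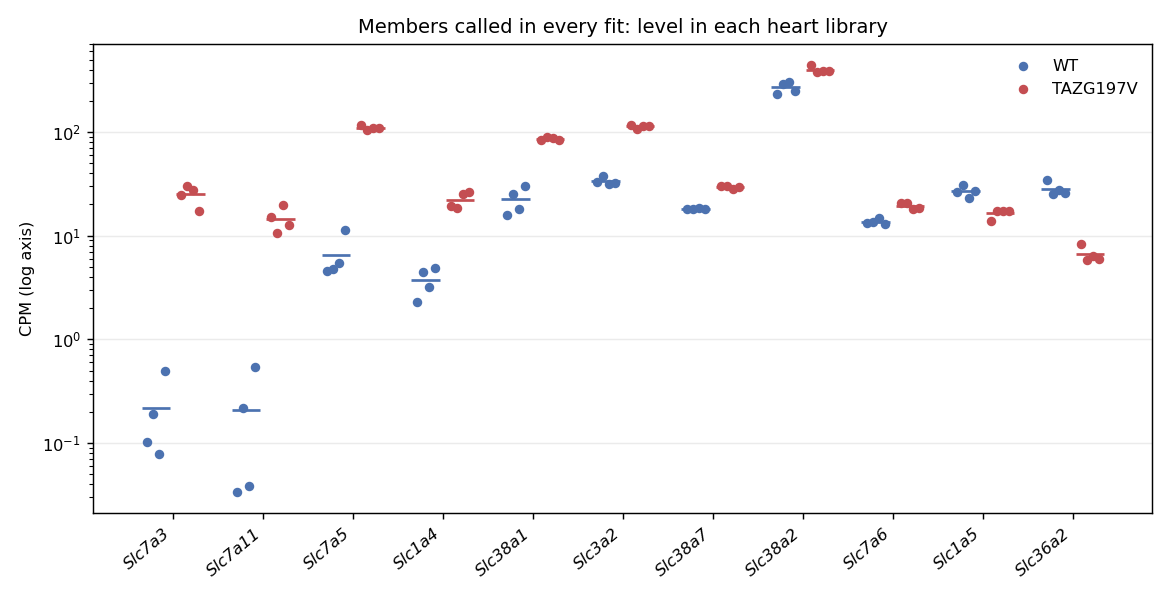
CPM (y axis, log scale) of the 11 members called in all fits, with a point for each of the 4 libraries of a genotype and a line at the mean. TAZG197V points lie above the WT points for 9 of the genes and below them for Slc1a5 and Slc36a2.

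Of the 5 glutamate and aspartate carriers 3 were tested, and the levels of Slc1a2 and Slc1a3 were far higher in the number 4 libraries than in the others. Slc1a2, the main glutamate carrier of astrocytes, measured 1.29, 0.632, 1.28 and 30.8 CPM in WT 1 to 4 and 2.18, 1.97, 1.42 and 79.0 CPM in TAZG197V 1 to 4. Both number 4 libraries were more than 10-fold above the other libraries of their genotype, as was the brain marker Snap25 (8.04 CPM in WT 4 and 21.8 CPM in TAZG197V 4 against 0.0388 to 0.474 CPM elsewhere). Slc1a2 was called higher (log2 fold change 0.66, SE 0.135, adjusted p = 0.0060), but the log2 fold change ranged from 0.33 to 1.81 as single libraries were left out. The call was lost without WT 1 (log2 0.37, adjusted p = 0.13), without WT 2 (log2 0.33, adjusted p = 0.34) and without TAZG197V 4 (log2 0.62, adjusted p = 0.16). Without WT 4 it was kept at 1.81 (adjusted p = 0.0074), and with no surrogate variables the log2 fold change was 1.34 (adjusted p = 0.55). With both number 4 libraries left out, it was 0.87 (adjusted p = 0.033) at a mean count below 50.

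Slc1a3, the other astrocyte carrier, showed the same pattern at 1.59 to 3.16 CPM in WT 1 to 3, 13.0 CPM in WT 4, 2.46 to 3.13 CPM in TAZG197V 1 to 3 and 33.3 CPM in TAZG197V 4. It was not called (log2 fold change 0.50, adjusted p = 0.062). With both number 4 libraries left out the log2 fold change of Slc1a3 was 0.29 (adjusted p = 0.26). It was called in 6 of the 17 alternative fits, among them DESeq2 (adjusted p = 0.044) and the fit without WT 4 (log2 0.91, adjusted p = 0.0061). Slc1a1, the carrier of neurons and kidney, was not called at 1.87 to 2.45 CPM in WT and 1.29 to 4.36 CPM in TAZG197V, and 31.9% of its exon bases are overlapped by a gene on the other strand. Slc1a6 had 0 to 9 counts and Slc1a7 0 to 16 counts per library, and neither was tested. Of the 12 brain markers, 9 were highest of their genotype in both number 4 libraries, and the part of such RNA in these carriers was not tested.

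**Figure D4:**
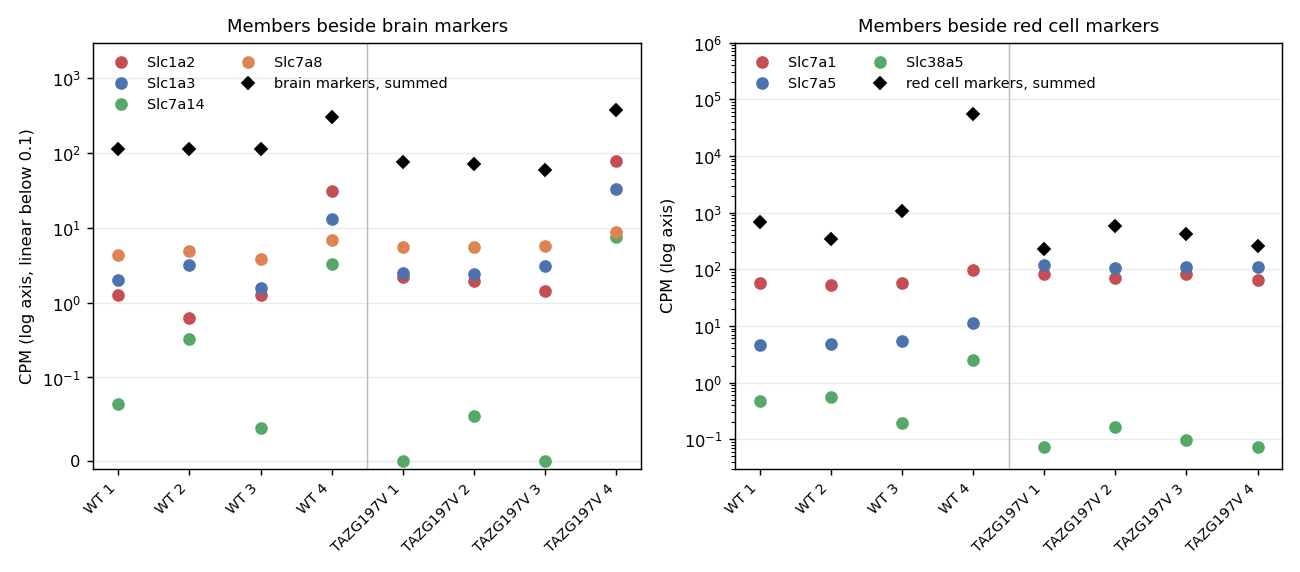
CPM (y axis, log scale) in each library (x axis) of Slc1a2, Slc1a3, Slc7a14 and Slc7a8 with the sum of 12 brain markers (left), and of Slc7a1, Slc7a5 and Slc38a5 with the sum of 7 red cell markers (right). Slc1a2 stands at 30.8 CPM in WT 4 and 79.0 CPM in TAZG197V 4, where the brain marker sum is 302 and 378 CPM, and red cell markers reach 55100 CPM in WT 4.

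Among the 11 sodium-coupled neutral transporters of the Slc38 family, 9 were tested and 4 were higher in TAZG197V hearts, against 18.5% of all tested genes, and 1 of the 4, Slc38a4, was not called with both number 4 libraries left out. Slc38a3 had a higher level and Slc38a9 and Slc38a11 lower levels at an unadjusted p under 0.05, and neither edgeR nor DESeq2 called them. Slc38a1, a glutamine and alanine importer (chr15:96571418-96642913, mm10), measured 16.0, 25.5, 18.3 and 30.4 CPM in WT 1 to 4 and 84.5, 89.5, 88.3 and 83.2 CPM in TAZG197V 1 to 4. All TAZG197V libraries lay close together and above every WT library, with a log2 fold change of 1.96 (SE 0.19, adjusted p = 1.5e-04). Slc38a2, the importer that is induced when amino acids run short, measured 233, 288, 306 and 248 CPM in WT 1 to 4 and 440.0, 376, 384 and 385 CPM in TAZG197V 1 to 4. The groups did not overlap, and the log2 fold change of Slc38a2 was 0.57 (SE 0.10, adjusted p = 0.0029). Slc38a2 was the most abundant member per kb in both genotypes, at 30.4 ± 3.86 CPM per kb in WT and 44.8 ± 3.33 CPM per kb in TAZG197V.

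Slc38a7, a lysosomal glutamine carrier, rose with very little spread between mice, at 17.97 to 18.5 CPM in WT and 28.04 to 30.3 CPM in TAZG197V (log2 fold change 0.69, SE 0.060, adjusted p = 9.8e-05). Slc38a4, a carrier of liver and placenta, was called higher (log2 fold change 0.55, adjusted p = 0.0025) although its levels overlapped at 7.19 to 17.9 CPM in WT and 13.6 to 16.5 CPM in TAZG197V. The call was kept in 10 of 17 alternative fits. It was 0.13 on the log2 scale without WT 4 (adjusted p = 0.59), 0.14 without TAZG197V 4 (adjusted p = 0.59) and 0.13 without both (adjusted p = 0.21). Slc38a1, Slc38a2 and Slc38a4 lie in a row on the minus strand of chromosome 15, with gaps of 44.5 kb and 295 kb that hold 0 protein-coding genes. All 3 were called higher with all libraries, at log2 fold changes of 1.96, 0.57 and 0.55.

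The other tested Slc38 members were not called. Slc38a3, a glutamine carrier, measured 88.0 ± 7.71 CPM in WT and 96.3 ± 10.9 CPM in TAZG197V, and Slc38a10 107 ± 2.47 and 111 ± 2.94 CPM. Slc38a9, the lysosomal arginine sensor of the mTOR pathway, measured 18.7 to 22.99 CPM in WT and 18.1 to 19.0 CPM in TAZG197V (log2 fold change -0.22, adjusted p = 0.067), and it was called lower without WT 1 (log2 -0.28, adjusted p = 0.022). Slc38a6 measured 3.46 to 5.58 and 4.44 to 4.87 CPM, with 35.5% of its 50-base stretches also found in other genes. Slc38a11 measured 0.670 to 1.32 CPM in WT and 0.420 to 0.623 CPM in TAZG197V (log2 fold change -0.75, adjusted p = 0.032), and its mean count of 22.5 was below the minimum of 50, so it was not called. Slc38a5, a glutamine carrier, had 57 counts in WT 4, the library with the most red cell markers, 5 to 20 in the other WT libraries and 2 to 6 in TAZG197V. As levels, Slc38a5 stood at 0.194 to 2.55 CPM in WT and 0.0727 to 0.162 CPM in TAZG197V, with no overlap. It was not tested with all libraries under the low-count filter. In the 6 alternative fits that tested it, its log2 fold change was -3.66 to -1.97 (adjusted p = 0.0018 to 0.043), at mean counts below the minimum for a call. Slc38a8 had 1 count in all.

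Per kb, the summed Slc38 level was 74.7 ± 4.28 CPM per kb in WT and 97.9 ± 4.67 CPM per kb in TAZG197V. Slc38a2 supplied 40.6% ± 2.92 and 45.8% ± 1.76 of the sum, and Slc38a1 1.76% ± 0.557 and 5.13% ± 0.298. Slc38a3 and Slc38a10 each supplied 22.3% in WT, and 18.6% and 17.7% in TAZG197V.

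The 4 Slc36 genes held the largest fall among the called members and a small rise. Slc36a2, a proton-coupled carrier of glycine, alanine and proline (chr11:55158470-55185077, mm10), measured 34.4, 25.0, 27.8 and 25.5 CPM in WT 1 to 4 and 8.39, 5.78, 6.42 and 5.90 CPM in TAZG197V 1 to 4. The highest TAZG197V library was far below the lowest WT library. Its log2 fold change was -2.11 (SE 0.148, adjusted p = 3.7e-05), a level 4.31-fold higher in WT, and it was -2.24 to -2.02 as single libraries were left out. Slc36a1, a lysosomal carrier of the same substrates that lies 19.3 kb away on the other strand, was not called at 13.6 to 16.8 CPM in WT and 15.4 to 18.2 CPM in TAZG197V (log2 fold change 0.16, adjusted p = 0.17). It was called higher without WT 4 (log2 0.26, adjusted p = 0.030), without TAZG197V 4 (log2 0.29, adjusted p = 0.024) and without both (log2 0.30, adjusted p = 0.022). Slc36a3, 6.8 kb on the other side of Slc36a2, had 0 counts in all libraries, as did Slc36a3os, and Slc36a1os had 2 counts in all.

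Slc36a4, a carrier of proline and tryptophan, was called higher at 15.9 ± 1.72 CPM in WT and 19.8 ± 1.47 CPM in TAZG197V, with no overlap (log2 fold change 0.32, adjusted p = 0.039). The call was kept in 11 of 17 alternative fits and 5 of the 6 fits that lost it left out 1 library, namely WT 1 (adjusted p = 0.086), WT 3 (0.084), TAZG197V 1 (0.091), TAZG197V 2 (0.065) or TAZG197V 3 (0.077). Per kb, the summed Slc36 level was 13.7 ± 0.980 CPM per kb in WT and 8.07 ± 0.698 CPM per kb in TAZG197V. Slc36a2 supplied 62.8% ± 5.23 of it in WT and 25.1% ± 2.69 in TAZG197V.

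Of the 3 Slc43 genes, edgeR called 0, DESeq2 called 0, and 1 had an unadjusted p under 0.05. Over all 15084 tested genes, edgeR called 33.4%, and 7245 had an unadjusted p under 0.05. Slc43a3, a purine nucleobase transporter despite its family, measured 69.8 to 97.8 CPM in WT and 57.6 to 89.0 CPM in TAZG197V. Slc43a2, a facilitative carrier of large neutral amino acids, measured 23.2 to 25.3 CPM in WT and 19.97 to 24.6 CPM in TAZG197V. Slc43a1, its relative, measured 3.08 ± 0.575 and 2.21 ± 0.520 CPM (log2 fold change -0.43, adjusted p = 0.077), and it was called lower with both number 4 libraries left out (log2 -0.57, adjusted p = 0.040). Slc7a6os, which is not a transporter and lies 2.0 kb beyond Slc7a6, measured 10.2 ± 0.727 and 10.3 ± 0.922 CPM and was not called.

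The order of the members by level changed with these shifts. In WT hearts the most abundant after Slc38a2 were Slc43a3 (18.9 ± 2.58 CPM per kb), Slc38a3 (16.7 ± 1.46), Slc38a10 (16.6 ± 0.384) and Slc3a2 (9.50 ± 0.780), and Slc7a5 was in place 16 at 1.76 ± 0.870 CPM per kb. In TAZG197V hearts Slc3a2 (32.1 ± 1.30 CPM per kb) and Slc7a5 (29.8 ± 1.40) followed Slc38a2, ahead of Slc38a3 (18.3 ± 2.07), Slc38a10 (17.3 ± 0.458) and Slc43a3 (17.2 ± 3.32). Neighbours in these orders with levels within an SD of each other, such as Slc38a3 and Slc38a10 in both genotypes, were not separated beyond their spread. Slc7a3 went from near 0 to place 8 at 6.63 ± 1.48 CPM per kb, beside Slc7a1 at 6.61 ± 0.782. Summed over the 42 transporters, the level was 143 ± 4.81 CPM per kb in WT and 223 ± 6.09 CPM per kb in TAZG197V, with no overlap. Abundant genes such as Slc38a2, Slc3a2 and Slc7a5 weigh most in this sum. The median log2 fold change of the 30 tested transporters was 0.18.

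Amino acid, taurine and peptide transporters outside these families were described from a list of 22 genes chosen by known function. Of these, 11 were tested, 1 was higher and 2 were lower, with a median log2 fold change of 0.00. The called share was 27.3%, near the 33.4% of all tested genes. Slc6a9, the glycine transporter GlyT1, measured 1.39, 1.98, 1.20 and 2.10 CPM in WT 1 to 4 and 13.9, 13.6, 13.8 and 12.4 CPM in TAZG197V 1 to 4. The TAZG197V libraries were alike and far above WT, with a log2 fold change of 3.04 (SE 0.179, adjusted p = 1.5e-05). Slc16a10, a carrier of aromatic amino acids, measured 22.9 to 33.6 CPM in WT and 16.0 to 17.7 CPM in TAZG197V (log2 fold change -0.81, adjusted p = 8e-05). Slc6a6, the taurine transporter, was called lower (log2 fold change -0.39, adjusted p = 0.013) with overlapping levels of 102 to 154.5 and 84.2 to 121.5 CPM, and the call was kept in 9 of 17 alternative fits. Without WT 3 its adjusted p was 0.067, without WT 4 it was 0.16 and without TAZG197V 4 it was 0.29. Per kb, the most abundant of the list that was not called was Ctns, the lysosomal cystine exporter, at 3.74 ± 0.462 CPM per kb in WT and 4.01 ± 0.214 CPM per kb in TAZG197V.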

How the data were processed

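Hearts of 4 WT and 4 TAZG197V mice were compared by RNA sequencing. The authors, per the labels and their methods, demultiplexed 50-base single-end reads with bcl2fastq 2.20.0, checked them with FastQC 0.11.9, aligned them to mm10 with STAR 2.7.3a and counted reads in exons with featureCounts of Subread 2.0.0. The deposited values are whole counts per Ensembl gene, not normalised. Annotation release, strand setting and handling of reads with several alignments are not given in the sources used here, so reads of overlapping genes on opposite strands, or of shared sequence, may be lost or misplaced. The 92 ERCC rows summed to 0 counts and were left out.

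Symbols, positions and exon lengths came from GENCODE M21 (55144 of 55471 gene IDs had a symbol), and promoters from RefSeq. Counts were filtered by filterByExpr, scaled by TMM and tested for genotype in edgeR 4.0.16 (R 4.3.3) by its two-sided quasi-likelihood F-test. Covariates were 2 surrogate variables (svaseq of sva 3.50.0, genotype protected, seed 1), and p-values were adjusted by Benjamini-Hochberg over all 15084 genes tested. The SE of a log2 fold change was its size over the square root of F. The procedure was run on simulated counts, with and without a random shift of genes in both number 4 libraries. That simulation did not include red cell RNA in WT 4 alone, or changes as large as those of Slc7a3 and Slc7a11. CPM refer to TMM-scaled totals of the genes tested. Depth of 23055689 to 36301031 counts makes the spread between mice the main error except for genes with few counts, and floors cover counting error only. The labels name separate mice by number only, so p-values measure the spread between these samples.

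The members and gene lists were chosen with earlier results of these data known. Every member was named by rule. Those called with a log2 change of at least 1 were given per library, and further members whose values depended on a library were chosen for that after their values were seen. Alternatives were DESeq2 1.42.0, other covariates (none, 1 surrogate variable, lane, replicate number), DESeq2 size factors, no low-count filter, no mitochondrially encoded genes, other cut-offs, and omission of each library and of both number 4 libraries. No 2 libraries of a genotype agreed within sampling noise (chi-square of at least 10.2 per gene for genes whose counts summed to 10 or more).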

Additional observations from a re-analysis of the deposited data

Results flagged for a closer look

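In each genotype, the gap between an extreme library and its nearest neighbour was divided by the range of the 4 libraries, and results above Dixon's 95% critical value for 4 samples are given here. Chance would place about 1 in 20 groups there, or 4.6 of the 92 examined, and 19 were found.

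Most were a number 4 library that stood far above its group. For Slc1a2 the gap was 0.978 of the range in WT (WT 4) and 0.99 in TAZG197V (TAZG197V 4), and for Slc1a3 it was 0.862 and 0.978. Slc7a14 gave 0.91 in WT and 0.993 in TAZG197V, Slc6a15 0.917 and 0.966, and Slc6a17 0.926 and 0.935. TAZG197V 4 was also highest for Slc7a8 (0.953) and Slc6a7 (0.97). These 2 libraries held the highest summed brain markers of their genotypes, 302 and 378 CPM.

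WT 4 was highest within WT for Slc7a1 (0.876), Slc7a5 (0.87) and Slc38a5 (0.849), and it also held 55100 CPM of red cell markers.

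Among the remaining results, TAZG197V 1 was lowest for Slc1a5 (0.946) and highest for Slc38a2 (0.855). TAZG197V 4 was lowest for Slc38a3 (0.832), and TAZG197V 3 was highest for Slc38a6 (0.845). Neither call of Slc1a5 or Slc38a2 was lost without TAZG197V 1.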

How the results depend on the processing

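In the 17 alternative fits, 11 of the 16 called members kept their call and direction, and the other 5 (Slc1a2, Slc36a4, Slc38a4, Slc7a2 and Slc7a8) lost it in some. No member or other listed transporter that was called changed sign. Of the 16 calls, DESeq2 kept 15, the fit with no surrogate variables 12, and lane in their place 12. A fold change of at least 1.5 left 10 members (8 higher) and 1831 genes (995 higher, 836 lower), by construction. Of the other amino acid transporters, the count called lower was 1 with no surrogate variables, 1 surrogate variable, lane, the replicate block, both number 4 libraries left out or a fold of 1.5. The count called higher was 2 with both number 4 libraries left out, the addition being Slc15a4 (log2 0.36, adjusted p = 0.044). The causes were not tested.

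When single libraries were left out, 13 to 17 members were called (10 to 15 higher, 2 to 4 lower), 3666 to 4814 genes (2121 to 2679 higher, 1545 to 2145 lower) and 2 to 3 other transporters (1 to 2 higher, 1 to 2 lower).

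Libraries share numbers between genotypes. Deviations of same-numbered libraries from their genotype means correlated at 0.277, 0.0436, 0.28 and 0.416 for numbers 1 to 4. Number 2 was below 0.1, and WT 3 correlated better with TAZG197V 1 (0.3) and TAZG197V 2 (0.317) than with TAZG197V 3, so the numbers were not read as pairs. With the replicate block 4272 genes (2438 higher, 1834 lower), 13 members (11 higher, 2 lower) and 2 other transporters (1 higher) were called, and 13 of the 16 member calls were shared. The calls of Slc36a4 (adjusted p = 0.0545), Slc38a4 and Slc7a2 were lost there. Depth limits Slc7a3 and Slc7a11 in WT, where 1 to 12 counts per library set the size of the change, and the 14 members not tested.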
